A study of Mus musculus with 6 samples.

Results

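Genes of the cell division cycle were compared between livers with and without hepatocyte SHMT2, the mitochondrial serine hydroxymethyltransferase. The set holds 44 genes of the 49671 in the deposited table, chosen by name and role: 22 act in G2 and mitosis, 5 regulate the G1/S transition, 14 copy DNA in S phase, and 3 are the D cyclins. The question put to them was whether the S-phase genes differed between genotypes as the mitosis genes and D cyclins did. All 44 had enough counts to be tested.

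RNA was taken from whole livers of 6 male C57BL/6J mice. The 3 controls, labelled WT and called SHMT2 fl/fl by the study, carry a Shmt2 gene with loxP sites around several exons and no Cre. The 3 mice labelled KO, called SHMT2 HKO, carry the same floxed gene with Albumin-Cre, in which the albumin promoter drives the deletion in hepatocytes, so that the other liver cells are taken to keep the gene. Both groups were put on the AMLN diet, a fatty liver diet high in fat, fructose and cholesterol, when 4 weeks old. They stayed on it for 18 weeks, to an age of 22 weeks, and no chow-fed livers were compared here.

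The gene counts of the libraries totalled 33954714, 23090837 and 34089722 for the controls, mice 1 to 3, and 29092690, 24641842 and 25848326 for the SHMT2 HKO animals 1 to 3. Levels are given as CPM, counts scaled to a common library size (1e6 counts) with edgeR's TMM factors, in the order of mice 1 to 3. The targeted gene itself, Shmt2, was at 94.5, 109 and 93.8 CPM in SHMT2 fl/fl mice and at 24.9, 28.2 and 19.3 CPM in SHMT2 HKO mice. It fell by 2.04 log2 units (SE 0.16, adjusted p = 0.000639). The groups did not overlap, and the exact permutation test of the CPM values (two-sided) gave p = 0.1, the smallest that 3 mice against 3 allow. Fold changes are those of SHMT2 HKO over SHMT2 fl/fl from the quasi-likelihood test of edgeR. Their p-values were adjusted by the Benjamini-Hochberg method over all 16089 genes tested, and a gene is said to rise or fall where its adjusted p is under 0.05. The tissue carried its defining markers: Alb, the main hepatocyte transcript, ranged from 34449 to 65585 CPM over the 6 livers.

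A cell that divides passes from growth (G1) through DNA synthesis (S) and a second growth phase (G2) to mitosis (M). D cyclins activate Cdk4 and Cdk6 in response to growth signals, and these kinases release E2F factors that switch on the replication genes. The mitosis genes are switched on later, in G2, by FoxM1 and by B-Myb bound to the MuvB complex. Most adult hepatocytes are out of the cycle, many are polyploid because they copied DNA without completing division, and in an injured liver immune, stellate and bile duct cells divide too.

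The mitosis and the S-phase genes are known for different promoter motifs, and a few promoters of the 2 classes are shown. RefSeq promoter windows of 300 bases (GRCm38.p6), from 250 before to 50 after each transcription start, were matched by symbol for 35 of the 44 genes, which have 38 windows among 32851 in all. They were searched on both strands for the CCAAT box (CCAAT), for the cell cycle homology region or CHR (TTTGAA or TTCGAA, the latter being its own reverse complement) and for an E2F site (TTTGGCGC, TTTCGCGC, TTTCCCGC or TTTGCCGC). The last can overlap one another on opposite strands. Only bases outside every annotated exon are printed, 5′ to 3′ on the gene's strand, with each match in capitals. Cdc20 and Mki67 had the lowest p among the mitosis genes that passed the test and had a match there, and Cdc6 among the S-phase genes. Mcm6 and Mcm5 were added, after the matches had been counted, as S-phase genes with more than 1 E2F match.
Cdc20 (chr4:118437353-118437593, minus strand): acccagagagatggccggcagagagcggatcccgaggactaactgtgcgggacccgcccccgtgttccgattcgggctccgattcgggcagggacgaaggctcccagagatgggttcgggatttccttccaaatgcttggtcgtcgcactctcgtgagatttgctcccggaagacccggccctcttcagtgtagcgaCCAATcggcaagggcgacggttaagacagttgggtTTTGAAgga
Mki67 (chr7:135716380-135716629, minus strand): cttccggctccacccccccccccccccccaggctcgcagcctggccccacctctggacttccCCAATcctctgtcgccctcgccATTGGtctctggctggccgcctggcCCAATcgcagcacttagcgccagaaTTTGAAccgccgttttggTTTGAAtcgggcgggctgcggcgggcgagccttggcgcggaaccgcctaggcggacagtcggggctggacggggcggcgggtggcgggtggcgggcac
Cdc6 (chr11:98907982-98908150, plus strand): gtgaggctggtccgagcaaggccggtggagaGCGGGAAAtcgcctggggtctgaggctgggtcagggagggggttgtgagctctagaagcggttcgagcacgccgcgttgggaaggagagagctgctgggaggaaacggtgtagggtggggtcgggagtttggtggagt
Mcm6 (chr1:128359706-128359955, minus strand): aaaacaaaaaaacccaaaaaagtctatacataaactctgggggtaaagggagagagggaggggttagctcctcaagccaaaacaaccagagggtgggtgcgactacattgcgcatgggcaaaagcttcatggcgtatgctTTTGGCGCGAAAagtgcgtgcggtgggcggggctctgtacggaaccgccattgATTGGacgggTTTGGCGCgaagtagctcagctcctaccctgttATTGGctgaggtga
Mcm5 (chr8:75109259-75109508, plus strand): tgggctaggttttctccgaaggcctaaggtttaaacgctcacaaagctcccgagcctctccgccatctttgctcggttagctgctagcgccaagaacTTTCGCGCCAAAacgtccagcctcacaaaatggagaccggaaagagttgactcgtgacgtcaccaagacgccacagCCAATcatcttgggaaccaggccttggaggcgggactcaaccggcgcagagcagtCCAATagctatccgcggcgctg

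The Mki67 window held 3 CCAAT boxes and 2 CHR elements close to them, and the Cdc20 window held 1 of each. No E2F match lay in either of these windows, whereas the Mcm6 window held 3, of which a pair overlap, and the Mcm5 window an overlapping pair. A CHR element was present in 77.8% of the 18 mitosis windows, in 21.4% of the 14 S-phase windows and in 19.2% of all promoters. An E2F site was present in 5.56% of mitosis windows, in 42.9% of S-phase windows and in 2.26% of all promoters. The 6 S-phase genes with a match were Cdc6, Cdt1, Mcm3, Mcm5, Mcm6 and Mcm7, and the mitosis gene was Cdk1. CCAAT boxes were present in 88.9% and 71.4% of the 2 classes against 37.4% of all promoters. Gene by gene, Birc5, Ccnb1, Cenpe and Nusap1 had no CHR match, and all of them fell in SHMT2 HKO livers. Cdc45, Mcm2 and Mcm7 had a CHR match and did not pass the test. E2f8, which rose, had both a CCAAT box and a CHR element. These matches describe letters in the windows, and no binding was measured. Whether they go with the genotype difference was not tested.

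**Figure D1:**
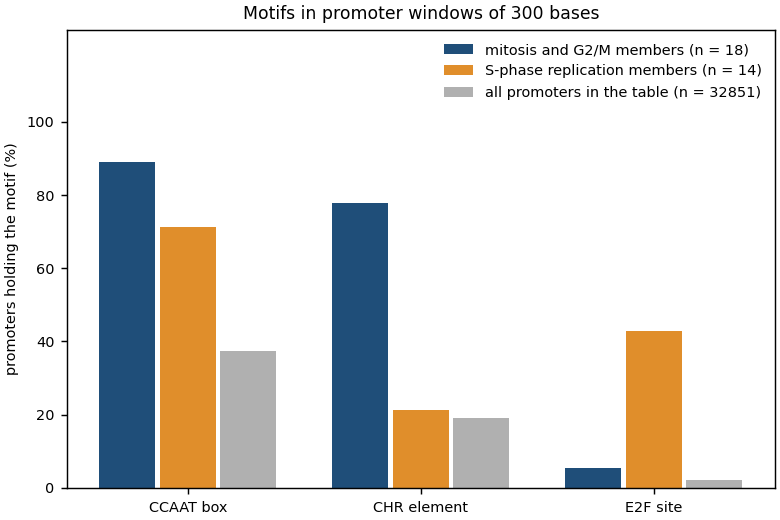
Share of promoter windows (vertical axis, percent, from 0) that hold each motif on either strand, for the mitosis genes, the S-phase genes and all promoters in the table (bars). CHR elements were present in 77.8% of the mitosis windows and E2F sites in 42.9% of the S-phase windows.

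Of the 44 genes, 18 fell and 2 rose in SHMT2 HKO livers, where 16.5% of all genes tested fell and 12.5% rose. Of the 18, 15 were mitosis genes, 1 was an S-phase gene (Cdc6), 1 a G1/S regulator (Mybl2) and 1 a D cyclin (Ccnd2). The median log2 fold change was -1.23 over the 22 mitosis genes, -0.19 over the 14 S-phase genes and 0.03 over all genes tested. Every mitosis gene had a lower log2 fold change than the S-phase median, and every S-phase gene had a higher one than the mitosis median. The log2 fold change was still negative in 12 of the 14 S-phase genes. These values are descriptions, and a difference between the classes was not tested. Summed over the 22 mitosis genes, the level was 121, 126 and 116 CPM in the controls against 30.5, 65.5 and 59.1 CPM in SHMT2 HKO mice. For the 14 S-phase genes the sums were 176, 196 and 183 CPM against 151, 214 and 174 CPM. The ratio of the mitosis to the S-phase sum was thus 0.655 ± 0.0301 (SD, n = 3) for the controls and 0.282 ± 0.0711 (SD, n = 3) for SHMT2 HKO mice, with no overlap between the groups. The S-phase sums lean on abundant genes. Pcna held 46.9, 45.9 and 47.6 CPM of them in the controls and 41.0, 61.1 and 45.9 CPM in SHMT2 HKO mice. Tk1, which rose, held 14.9, 16.6 and 17.2 CPM against 27.8, 31.1 and 17.5 CPM. In RNA from whole tissue, fewer cells in a phase and less RNA per cell cannot be told apart.

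**Figure D2:**
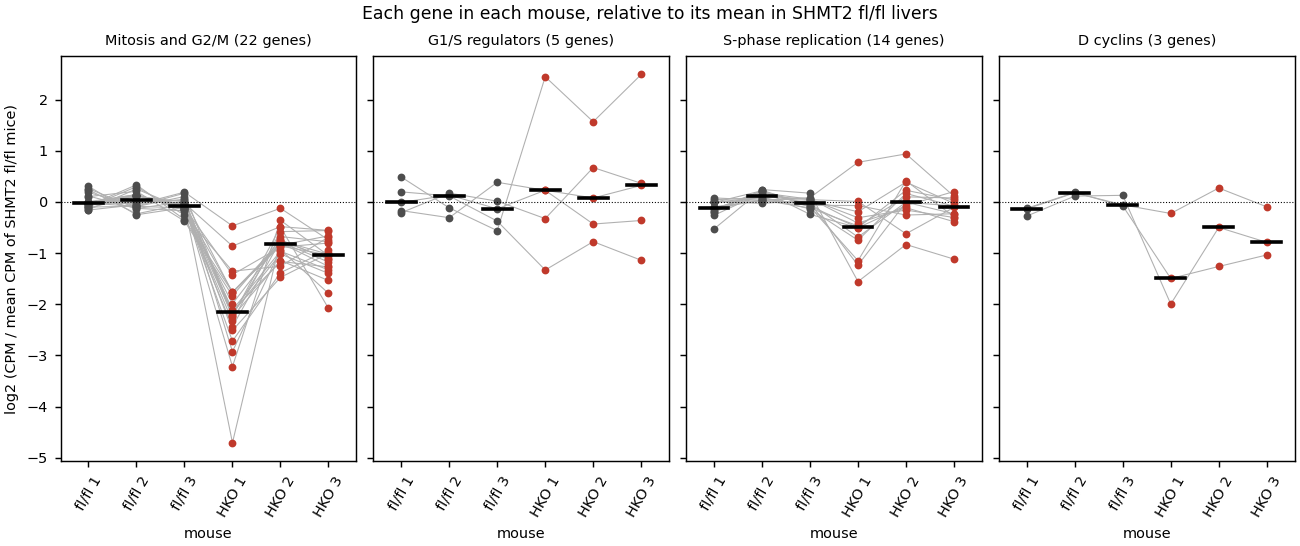
Each gene in each liver as log2 of its CPM over the SHMT2 fl/fl mean (vertical axis, log2 units) for the 4 roles, with grey lines joining the values of a gene and black bars at the median of the genes. The median of the mitosis genes was -2.15, -0.82 and -1.04 in SHMT2 HKO mice 1 to 3, while that of the S-phase genes was -0.49, -0.0066 and -0.095.

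SHMT2 HKO mouse 1 stood apart from its group. It was the lowest of the 3 SHMT2 HKO mice for 37 of the 44 genes (84.1%), compared with 35.3% of all genes tested, and for 21 of the 22 mitosis genes. Without this mouse 16 mitosis genes fell, their median was -0.93, and the S-phase median was 0.0043. Without SHMT2 fl/fl mouse 1, 2 or 3, the falling genes numbered 7, 6 and 8 of 44, of which 6, 5 and 7 were mitosis genes, and the mitosis median lay between -1.32 and -1.17. Mki67, Cdc20, Birc5, Kif20a, Foxm1, E2f8 and Ccnd2 passed the test in all 15 alternative settings of scaling, filter, test and samples. The other 10 falling mitosis genes passed in 10 (Cenpf) to 14 (Cdk1) of them, with adjusted p-values up to 0.126 (Cenpf). Each of the 10 failed without at least 1 of the control mice, and their log2 fold changes were negative throughout.

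Within the mitosis genes, 21 of 22 had all 3 SHMT2 HKO mice below all 3 SHMT2 fl/fl mice, an order shown by 25.0% of all genes tested (the opposite order by 21.9%). Mki67, the Ki-67 protein that coats mitotic chromosomes and marks cycling cells, was at 16.2, 16.7 and 15.7 CPM in SHMT2 fl/fl livers and at 2.84, 5.82 and 8.06 CPM in SHMT2 HKO livers. It was 2.90-fold lower (log2 fold change -1.54, SE 0.32, adjusted p = 0.0102), and its spread was narrow in the controls and wide in the SHMT2 HKO group. Ccnb2, a B-type cyclin that activates Cdk1 at mitotic entry, had the largest fitted decrease of the 44 genes. Its levels were 7.62, 7.25 and 8.32 CPM against 1.02, 4.05 and 2.24 CPM, a log2 fold change of -1.68 (SE 0.41, adjusted p = 0.0192). It passed in 11 of 15 alternatives, and the adjusted p was 0.0596, 0.0538 and 0.0675 without SHMT2 fl/fl mouse 1, 2 or 3 and 0.0516 without SHMT2 HKO mouse 3. Ccnb1, another B-type cyclin, fell by 1.5 log2 units (adjusted p = 0.0246), and Cdk1, the kinase that both cyclins activate, by 1.01 (adjusted p = 0.0131). Ccna2, the A-type cyclin of S phase and G2, fell by 1.02 (adjusted p = 0.0320).

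Foxm1, the transcription factor that drives the G2/M program, was at 5.03, 4.25 and 4.67 CPM in SHMT2 fl/fl livers and at 1.06, 2.07 and 1.93 CPM in SHMT2 HKO livers. This was a log2 fold change of -1.46 (SE 0.29, adjusted p = 0.00823), and the highest SHMT2 HKO liver held less than the lowest control. Birc5 (survivin) and Aurkb, members of the chromosomal passenger complex that corrects chromosome attachment, fell by 1.40 and 1.17 (adjusted p = 0.0100 and 0.0283). Plk1, a kinase of mitotic entry and spindle assembly, fell by 1.24 (adjusted p = 0.0227). Aurka, the centrosomal Aurora kinase, was the mitosis gene with the smallest difference and the only member of its class whose groups overlapped: 4.89, 5.26 and 6.23 CPM against 3.94, 5.01 and 3.26 CPM (log2 fold change -0.43, SE 0.23, adjusted p = 0.192).

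Later steps of mitosis gave the same direction. Cdc20, the activator of the anaphase-promoting complex, was at 9.53, 11.2 and 10.3 CPM against 2.29, 5.11 and 3.93 CPM, a log2 fold change of -1.46 (SE 0.28, adjusted p = 0.00689). Kif20a, a kinesin of the central spindle and cytokinesis, had the lowest p-value of the class: 5.94, 6.01 and 6.18 CPM against 1.27, 2.73 and 2.08 CPM, or 2.99-fold lower (log2 fold change -1.58, SE 0.28, adjusted p = 0.00579). For both genes the 3 controls lay close together and the SHMT2 HKO livers were all below them, mouse 1 lowest. The motor Cenpe and the kinetochore protein Cenpf fell by 1.23 and 1.25 (adjusted p = 0.0253 and 0.0459), and the spindle-bundling proteins Nusap1 and Prc1 by 1.17 and 1.06 (adjusted p = 0.0312 and 0.0206). These 4 calls held in 11, 10, 11 and 12 of 15 alternatives, and without a single control mouse the adjusted p reached 0.104, 0.126, 0.107 and 0.0820.

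The other 6 mitosis genes that did not pass the test all had lower means in SHMT2 HKO livers and no overlap between groups. Top2a, the topoisomerase that untangles sister chromatids, was at -1.08 on the log2 scale (adjusted p = 0.0549), and Kif11, the spindle motor Eg5, at -0.63 (adjusted p = 0.0905). Top2a passed in 8 of 15 alternatives and Kif11 in 1. The spindle checkpoint genes Bub1, Bub1b and Ttk were at -1.40, -0.96 and -1.46 (adjusted p = 0.0684, 0.116 and 0.123), and Tpx2, which activates Aurka on the spindle, at -1.14 (adjusted p = 0.158). Bub1 and Ttk rest on few reads. Ttk had 43, 32 and 41 counts in SHMT2 fl/fl livers and 1, 13 and 13 counts in SHMT2 HKO livers, and Bub1 had 38, 25 and 43 against 5, 14 and 6.

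**Figure D3:**
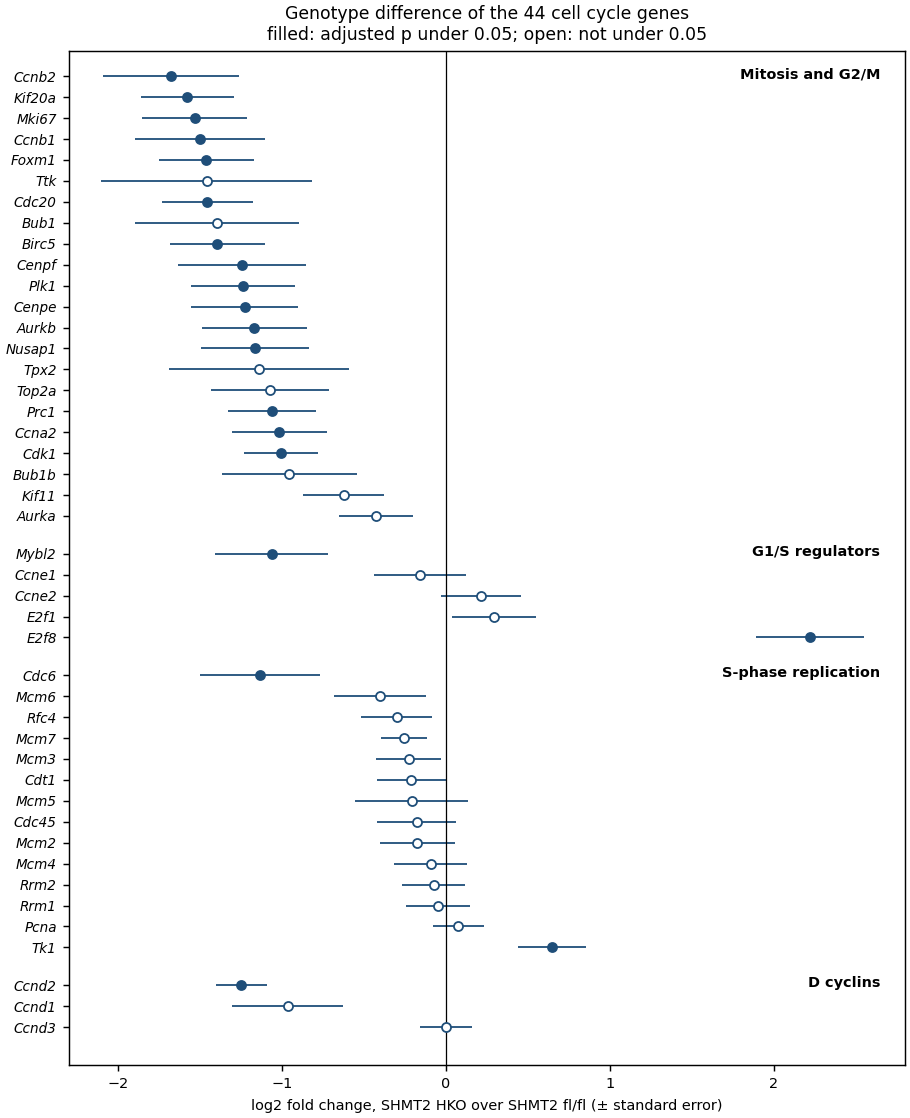
Log2 fold change of SHMT2 HKO over SHMT2 fl/fl for the 44 genes by role (horizontal axis, log2 units, points with standard error bars, 3 mice per group, filled where the adjusted p was under 0.05). All 22 mitosis genes lie below zero, from -1.68 to -0.43, while 12 of the 14 S-phase genes are open circles between -0.40 and 0.07.

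Of the 14 S-phase genes, 12 did not pass the test. The helicase that unwinds the origins, Mcm2 to Mcm7, had log2 fold changes from -0.40 (Mcm6, SE 0.28, adjusted p = 0.317) to -0.09 (Mcm4, SE 0.22, adjusted p = 0.780). Mcm6 was at 15.6, 18.8 and 16.8 CPM in SHMT2 fl/fl livers and at 7.25, 17.0 and 14.5 CPM in SHMT2 HKO livers, and Mcm2 was at 12.2, 12.6 and 10.8 CPM against 7.04, 13.3 and 11.2 CPM. Mcm5, whose promoter window holds an overlapping pair of E2F matches, was at 8.21, 10.6 and 8.52 CPM against 4.11, 12.1 and 7.47 CPM (log2 fold change -0.21, SE 0.35, adjusted p = 0.685). In these 3 genes SHMT2 HKO mouse 1 was below every control, and mouse 2 lay within or above the control range. Mcm3 and Mcm7 were at -0.23 and -0.26 (adjusted p = 0.423 and 0.210).

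Pcna, the sliding clamp of the replicative polymerases, was the most abundant of the S-phase genes per length of transcript, at 19.5 CPM per kb in SHMT2 fl/fl livers. It measured 46.9, 45.9 and 47.6 CPM against 41.0, 61.1 and 45.9 CPM, a log2 fold change of 0.07 (SE 0.16, adjusted p = 0.749). The SHMT2 HKO values thus lay on both sides of the controls. Rrm1 and Rrm2, the subunits of ribonucleotide reductase that supplies deoxynucleotides, were at -0.05 and -0.08 (SE 0.19 for each, adjusted p = 0.871 and 0.792). Cdc45, which completes the helicase, and Cdt1, which loads it, were at -0.18 and -0.21 (adjusted p = 0.615 and 0.487). Rfc4, a subunit of the clamp loader, had a log2 fold change of -0.30 (SE 0.22, adjusted p = 0.338), with the SHMT2 HKO livers at 2.54, 3.14 and 2.60 CPM just below the controls at 3.18, 3.46 and 3.55 CPM. It shares 194 bases of exon with Eif4a2 on the opposite strand, which rose by 0.58 (adjusted p = 0.0130). A p-value above the threshold does not show equal levels, and the standard errors of the 14 genes ran from 0.14 to 0.37.

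Cdc6, the loading factor that places the helicase on origins in G1, was the S-phase gene that fell. It was at 1.12, 1.92 and 1.82 CPM in SHMT2 fl/fl livers and at 0.551, 0.911 and 0.747 CPM in SHMT2 HKO livers (log2 fold change -1.14, SE 0.37, adjusted p = 0.0494). The groups did not overlap, but the call stood close to the threshold and held in 5 of 15 alternatives (adjusted p from 0.0154 to 0.166). Its promoter window held an E2F match and no CHR element.

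Tk1, the thymidine kinase of the salvage pathway, was the S-phase gene that rose. The levels were 14.9, 16.6 and 17.2 CPM against 27.8, 31.1 and 17.5 CPM, a log2 fold change of 0.65 (SE 0.21, adjusted p = 0.0474). SHMT2 HKO mouse 3 was barely above the highest control, and without mouse 1 or mouse 2 of that group the adjusted p was 0.0801 and 0.152. The call held in 4 of 15 alternatives. Scaling to the ERCC spike-in RNAs, which shifted the median of all genes to -0.69, gave -0.20. Tk1 shares 83 bases of exon with Afmid on the opposite strand, which also rose, by 0.78 (adjusted p = 0.0316). How the counting used strand is not given in the sources used here, so reads over the shared bases cannot be told apart.

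Among the G1/S regulators, E2f8 had the largest increase of the 44 genes. E2f8 encodes an atypical E2F that represses E2F targets and is known for its role in hepatocyte polyploidy. It was at 5.77, 3.80 and 2.79 CPM in SHMT2 fl/fl livers and at 22.4, 12.2 and 23.1 CPM in SHMT2 HKO livers, or 4.66-fold higher (log2 fold change 2.22, SE 0.33, adjusted p = 0.00305). The lowest SHMT2 HKO liver held more than the highest control. E2f8 shares 610 bases of exon with Gm2788 on the opposite strand, which was at 12.4, 8.04 and 6.28 CPM against 63.8, 37.8 and 44.5 CPM (log2 fold change 2.45, adjusted p = 0.00148). The neighbour moved the same way, and the reads of the pair cannot be told apart over the shared bases.

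Mybl2, which encodes B-Myb, fell by 1.06 on the log2 scale from 1.59, 1.5 and 1.07 CPM to 0.551, 0.809 and 0.629 CPM (SE 0.34, adjusted p = 0.0497), a call that held in 5 of 15 alternatives. E2f1, an activator of replication genes, was at 6.89, 8.98 and 8.06 CPM against 6.36, 12.7 and 10.3 CPM (log2 fold change 0.29, SE 0.25, adjusted p = 0.425). Ccne1 and Ccne2, the E cyclins that activate Cdk2 at S-phase entry, had log2 fold changes of -0.16 and 0.22 (adjusted p = 0.705 and 0.546). The groups overlapped for E2f1 and for both E cyclins.

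Of the 3 D cyclins, 1 passed the test, and differences between the cyclins were not tested. Ccnd2 was at 31.2, 38.6 and 32.2 CPM in SHMT2 fl/fl livers and at 12.0, 14.2 and 16.6 CPM in SHMT2 HKO livers, or 2.38-fold lower (log2 fold change -1.25, SE 0.16, adjusted p = 0.00164). It had the lowest p-value of the 44 genes and a wide gap between the groups. Ccnd1, the main D cyclin of hepatocytes re-entering the cycle, was at 134, 176 and 178 CPM against 40.8, 115 and 94.2 CPM. All 3 SHMT2 HKO livers were below the controls, but mouse 1 stood far below the other two and the test was not passed (log2 fold change -0.97, SE 0.34, adjusted p = 0.0666). Without that mouse the log2 fold change was -0.63 (adjusted p = 0.0260), and Ccnd1 passed in 7 of 15 alternatives. Ccnd3 was at 59.6, 74.2 and 63.0 CPM against 56.0, 79.1 and 61.3 CPM (log2 fold change -0.0016, SE 0.16, adjusted p = 0.996), with the ranges one within the other. Per length of transcript, Ccnd1 was the highest of the 3 in SHMT2 fl/fl livers at 34.6 CPM per kb, followed by Ccnd3 at 7.47 and Ccnd2 at 3.61. In SHMT2 HKO livers the order was the same, at 17.7, 7.46 and 1.51 CPM per kb.

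**Figure D4:**
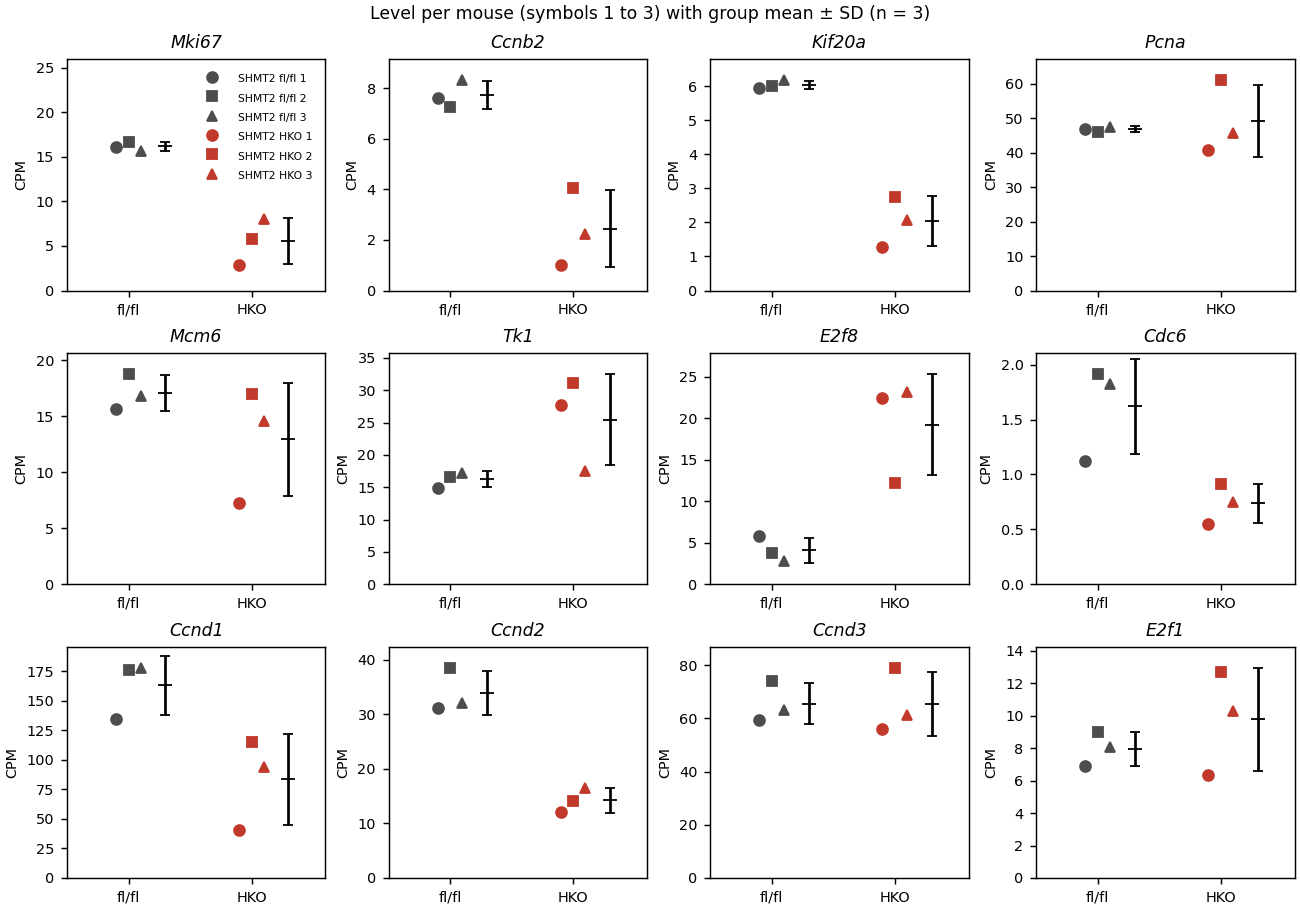
CPM per liver (vertical axes, from 0) of 12 of the genes, with a symbol for each mouse and the mean ± SD of each group (n = 3). Mki67, Ccnb2, Kif20a and Ccnd2 separate the groups downward and E2f8 upward, whereas Pcna, E2f1 and Ccnd3 overlap.

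Of the 44 genes, 13 share exon sequence with another gene at 1 CPM or more. Besides Tk1 and E2f8 these include the falling genes Cdc20 (with Elovl1), Kif20a (with Cdc23), Ccna2 (with Exosc9), Nusap1 (with Oip5) and Prc1 (with Rccd1). None of those 5 neighbours passed the test, with log2 fold changes from -0.68 (Oip5) to 0.17 (Rccd1). Among the 31 genes with no such neighbour, 13 fell and 0 rose (0 were higher at an unadjusted p under 0.05 or by DESeq2), with a median of -1.24 over 17 mitosis genes and -0.19 over 10 S-phase genes. Kif20a shares 1271 bases with Cdc23, which was at 20.4, 18.3 and 18.9 CPM against 18.4, 16.2 and 15.4 CPM.

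Scaling shifted all genes together. The TMM factors were 1.13 to 1.21 in SHMT2 fl/fl and 0.802 to 0.984 in SHMT2 HKO livers. Without them the median of all genes was -0.40, and with ERCC scaling it was -0.69. Relative to that median, the mitosis genes lay at -1.26 and -1.21 and the S-phase genes at -0.22 and -0.20 in these 2 settings, against -1.26 and -0.22 in the values given here.

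Further genes of the pathway were taken in lists, to be read against the 16.5% of all genes tested that fell, the 12.5% that rose and the all-gene median of 0.03. These are shares of the values reported: over the alternative settings, 1621 to 4919 genes fell and 107 to 2535 rose. Of 48 other kinetochore, spindle and cytokinesis genes, 20 fell and 0 rose (4 were higher at an unadjusted p under 0.05, and 1 passed by DESeq2), and the median was -0.92. The falling genes of this list numbered 7, 6 and 6 without SHMT2 fl/fl mouse 1, 2 or 3, and 17 to 19 without a mouse of the SHMT2 HKO group. Over all alternative settings they numbered 6 to 33. Those with the lowest p-values were Cdc25b, the phosphatase that activates Cdk1, Racgap1, which directs cytokinesis, and Ncapd2, a condensin subunit. Racgap1 was at 7.48, 7.48 and 6.54 CPM against 1.53, 2.43 and 3.26 CPM (log2 fold change -1.57, SE 0.28, adjusted p = 0.00565), while Cdc25b and Ncapd2 fell by 1.24 and 0.73 (adjusted p = 0.00411 and 0.00793). The Racgap1 levels did not overlap between the groups. Cdc25b shares 92 bases of exon with Spef1 on the opposite strand, which also fell, by 0.91 (adjusted p = 0.0112). Bub3, the list's gene with the most counts, stood at 0.03 log2 units (adjusted p = 0.869).

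Of 43 other origin, polymerase and replisome genes, 0 fell (3 were lower at an unadjusted p under 0.05, and 0 passed by DESeq2) and 2 rose, among them Mcm10, with a median of -0.04. Without TMM, which shifts all genes downward, 11 of the 43 fell, but the median of all genes was then -0.40. The share of all genes that fell in the values reported does not apply to that count. Mcm10, which helps to start the replication fork, was at 41.3, 41.6 and 54.4 CPM in SHMT2 fl/fl livers and at 192, 93.6 and 107 CPM in SHMT2 HKO livers (log2 fold change 1.52, SE 0.27, adjusted p = 0.00610). It was highest in SHMT2 HKO mouse 1, the mouse in which most mitosis genes were lowest. Tyms, the thymidylate synthase, was at 6.72, 6.88 and 8.58 CPM against 6.95, 7.59 and 7.04 CPM (log2 fold change -0.04, SE 0.17, adjusted p = 0.880), and its groups overlapped.

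Among 10 CDK inhibitors and pocket proteins, 2 fell and 1 rose, shares near those of all genes tested (16.5% and 12.5%). At an unadjusted p under 0.05, which 6654 of the 16089 genes tested had in either direction, 5 were lower. Without TMM 6 fell, but the median of all genes was then -0.40 and the 16.5% does not apply. Leaving out 1 mouse gave 1 to 2 falling and 0 to 1 rising. Cdkn2c (p18), which binds Cdk4 and Cdk6, fell from 16.7, 20.2 and 19.5 CPM to 7.89, 9.0 and 9.99 CPM (log2 fold change -1.07, SE 0.15, adjusted p = 0.00244). Cdkn2b (p15), an inhibitor of the same kinases, fell by 1.90 (adjusted p = 0.0138), and the pocket protein Rbl2 (p130), which holds E2F targets off in resting cells, rose by 0.35 (adjusted p = 0.0339). Neither inhibitor overlapped between the groups. Cdkn1a (p21), the inhibitor induced by p53, was at 46.6, 63.3 and 32.5 CPM against 7.21, 32.0 and 37.7 CPM (log2 fold change -0.89, SE 0.55, adjusted p = 0.269), with only mouse 1 of the SHMT2 HKO group far below the controls. Cdkn1b (p27) and Rb1 had log2 fold changes of -0.31 and -0.14 (adjusted p = 0.102 and 0.655).

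Of 18 G1 kinases and E2F family genes, 1 fell and 0 rose (0 were higher at an unadjusted p under 0.05 or by DESeq2). Leaving out 1 mouse gave 0 to 1 falling. Without TMM 7 fell, but the median of all genes was then -0.40 and the 16.5% does not apply. In the values reported, the falling gene was E2f2, an activator E2F, with a log2 fold change of -0.99 (SE 0.31, adjusted p = 0.0440). Cdk4 and Cdk6, the kinases bound by D cyclins, were at -0.28 and 0.04 (adjusted p = 0.0926 and 0.861). Of 12 genes of hepatocyte growth signals, 2 fell and 2 rose, which is likewise near the shares of all genes tested. Leaving out 1 mouse gave 1 to 3 falling and 1 to 2 rising, and over all alternative settings 1 to 4 fell and 0 to 2 rose. Hbegf, a ligand of the EGF receptor, was at 2.54, 4.25 and 3.88 CPM against 1.02, 0.961 and 1.06 CPM (log2 fold change -1.80, SE 0.29, adjusted p = 0.00386), and the YAP target Ccn1 fell by 0.91 (adjusted p = 0.0181). The receptors Met and Erbb3 rose by 0.65 and 0.43 (adjusted p = 0.00755 and 0.0409). Hgf, the ligand of Met, Egfr and Myc were at -0.11, 0.30 and 0.18 (adjusted p = 0.891, 0.421 and 0.640).

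Many markers of bile duct, T and NK, myeloid and stellate cells were also lower in SHMT2 HKO livers (16.5% of all genes tested fell and 12.5% rose). All 8 cholangiocyte markers fell, and their summed level was 1065, 1280 and 1023 CPM in the controls against 151, 152 and 269 CPM in SHMT2 HKO livers, with Spp1 the most abundant. Spp1, which other cells express too, made up most of these sums, and the other 7 markers summed to 190, 337 and 232 CPM against 47.3, 46.9 and 53.8 CPM. Of 10 T and NK cell markers 8 fell, with sums of 30.6, 25.2 and 25.5 CPM against 8.73, 6.12 and 7.67 CPM and Cd8a the most abundant. These are bile duct and lymphocyte genes, and in the sums of both lists every SHMT2 HKO liver lay below every control. Cd4 and Gzma, the T and NK cell markers that did not pass the test, overlapped between the groups. Of 12 macrophage and myeloid markers 8 fell and 1, Clec4f of resident Kupffer cells, rose (log2 fold change 2.83, adjusted p = 0.00391). The myeloid sums were 785, 641 and 849 CPM against 346, 403 and 474 CPM, with Lyz2 the most abundant. Of 10 stellate cell and fibroblast markers 5 fell and 1, Reln, rose (log2 fold change 0.97, adjusted p = 0.0105). Their sums were 1563, 1541 and 1588 CPM against 404, 601 and 996 CPM, with Col3a1 the most abundant. Collagen genes weigh heavily in these sums. Col1a1, Col1a2 and Col3a1 averaged 382, 241 and 454 CPM in the controls and 105, 76.3 and 138 CPM in SHMT2 HKO livers. Acta2, Lrat, Dcn and Rgs5 overlapped between the groups and did not pass the test.

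In the remaining lists few or no markers fell. Of 10 hepatocyte markers 0 fell (1 was lower at an unadjusted p under 0.05, and 1 passed by DESeq2) and 2 rose (5 at an unadjusted p under 0.05 and 5 by DESeq2), with sums of 57340, 60258 and 69428 CPM against 99747, 103275 and 70064 CPM. Of 8 endothelial markers 0 fell (0 also at an unadjusted p under 0.05 and by DESeq2) and 2 rose (4 in either of those counts), with sums of 210, 182 and 200 CPM against 247, 285 and 291 CPM and Stab2 the most abundant. The erythroid list, led by Hbb-bs, had 0 of 7 tested genes lower (0 also at an unadjusted p under 0.05 and by DESeq2) and 1 higher (2 in either of those counts), and summed to 173, 117 and 186 CPM against 239, 250 and 220 CPM. The B and plasma cell list, led by Ighm, had 1 of 7 lower, Jchain (2 at an unadjusted p under 0.05, and 1 by DESeq2). Of the 7 tested genes, 6 had a negative log2 fold change, and the median was -0.81. The list summed to 25.2, 30.2 and 26.1 CPM against 13.1, 31.2 and 13.8 CPM. Ighm alone made up 24.6 of the 31.2 CPM in SHMT2 HKO mouse 2. In the neutrophil list, led by S100a9, 0 of 3 tested genes passed (0 also at an unadjusted p under 0.05 and by DESeq2), and the sums were 2.59, 1.35 and 2.48 CPM against 3.86, 2.18 and 3.11 CPM. The defining markers Ly6g and Mpo had 0 counts in all SHMT2 fl/fl livers, and the plasma cell marker Tnfrsf17 had 0 counts in 5 of the 6 livers.

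The order of the SHMT2 HKO mice was not the same in all lists. Without Spp1, the cholangiocyte sums of mice 1 and 2 were 47.3 and 46.9 CPM, while their mitosis sums were 30.5 and 65.5 CPM. The stellate and myeloid sums were lowest in mouse 1, as the mitosis sum was, and highest in mouse 3, whereas the mitosis sum was highest in mouse 2. The part of these cell types in the differences of the cell cycle genes was not tested.

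**Figure D5:**
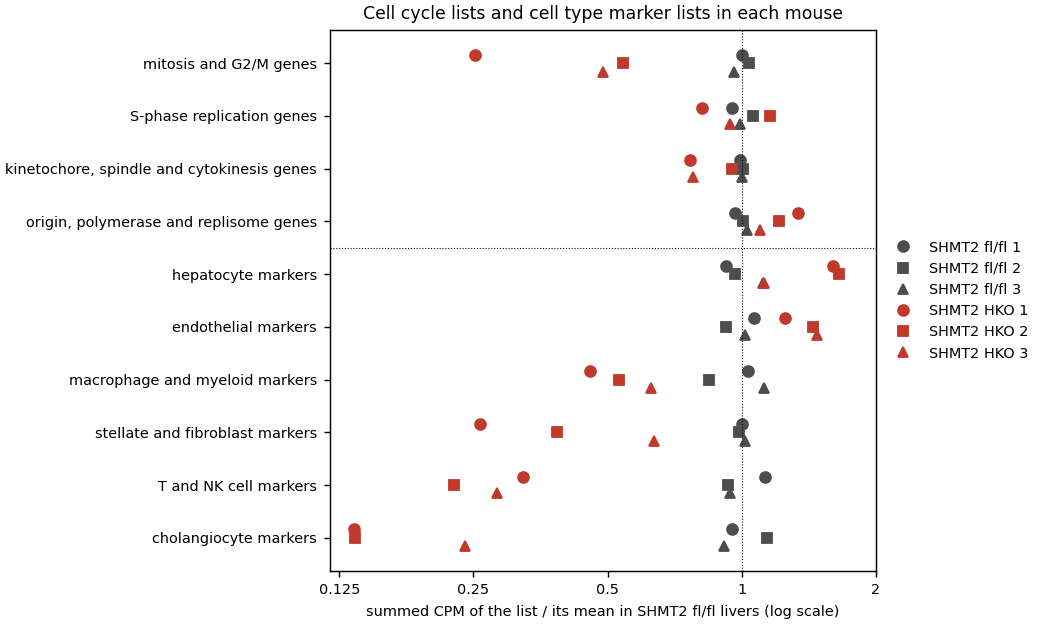
Summed CPM of 4 cell cycle lists and 6 marker lists in each liver over the mean of the SHMT2 fl/fl livers (horizontal axis, log scale), with a symbol for each mouse. The mitosis genes and the cholangiocyte, T and NK cell, stellate and myeloid markers lie below 1 in all 3 SHMT2 HKO livers, and the S-phase genes lie on both sides of 1.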

How the data were processed

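RNA-seq counts of 6 mouse livers, 3 SHMT2 fl/fl and 3 SHMT2 HKO, were analysed. The libraries were made with the NEBNext Ultra kit and sequenced as read pairs. The values deposited by the authors are raw counts of reads per gene, without normalization. According to the submitters' processing notes the tools were Trimmomatic 0.36, STAR 2.5.2b and featureCounts of Subread 1.5.2, with the build GRCm38 (mm10). The use of strand is not given in the sources used here. Columns were matched to samples by their labels, and the WT label was read as SHMT2 fl/fl from the study's text. The labels give replicates only as a number, so p-values measure the spread between these samples.

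The 92 ERCC spike-in entries entered neither library sizes nor tests. In R 4.3.3, edgeR 4.0.16 was used to remove low genes (filterByExpr), to scale by TMM and to compare the genotypes by the quasi-likelihood test with robust dispersions (two-sided), with Benjamini-Hochberg adjustment over 16089 genes. Of these, 2651 were lower and 2012 higher in SHMT2 HKO livers at an adjusted p under 0.05. Over the alternative settings, 1621 to 4919 genes were lower and 107 to 2535 higher, so the shares of all genes depend on the setting. The floor of 3 counts was 0.0880 to 0.130 CPM. CPM per kb used the union of annotated exons. The study itself used limma-voom, which was run as an alternative (limma 3.58.1), as were DESeq2 1.42.0, other scalings and filters, a block for the replicate number, and the fit without each mouse in turn. Leaving out genes with shared exons was chosen after seeing the data. The code was tested on simulated data.

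The 44 genes and all lists were chosen with earlier results of these data known, so counts and medians over them are descriptions, to be read against the shares and the median over all genes tested. Named are Shmt2, the 44 genes, up to 3 genes of lowest p in each direction from each other list, genes named whatever their values (Cdkn1a, Cdkn1b, Cdk4, Cdk6, Rb1, Myc, Egfr, Met, Hgf and Tyms), and the most abundant gene of each marker list with markers at 0. Bub3, Clec4f, Reln, Jchain, Cd4, Gzma, Col1a1, Col1a2, Acta2, Lrat, Dcn, Rgs5 and the neighbours with shared exons were named after their values were seen. Of the genes this rule names, 1 is not reported here. Of the promoter windows, those of Cdc20, Mki67 and Cdc6 were of the lowest p with a motif match, and those of Mcm6 and Mcm5 were added after the matches had been counted.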

Additional observations from a re-analysis of the deposited data

How the results depend on the processing

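Of the 44 genes, 18 fell in the values reported, and 6 to 18 when each mouse was left out in turn (7, 6 and 8 without SHMT2 fl/fl mouse 1, 2 or 3). Among the other settings, 14 fell with the replicate block, 16 without a count filter, 26 without TMM and 23 with ERCC scaling. With genes with shared exons left out, 13 fell. Of the calls among the 44 genes, limma-voom gained 2 and lost 3, and DESeq2 and upper-quartile normalization each gained 2 and lost 1. At least 10 counts in every sample gained 1 and lost 1, and dispersions without robust estimation lost 1. The number that rose, 2 in the values reported, was 1 with limma-voom, without TMM, with upper-quartile normalization, with ERCC scaling, with at least 10 counts in every sample and with the replicate block, 0 without genes with shared exons, and 1 to 2 when a mouse was left out. The median of the mitosis genes lay between -1.91 (ERCC scaling) and -0.93 (without SHMT2 HKO mouse 1). That of the S-phase genes was -0.61 without TMM and -0.89 with ERCC scaling, and -0.25 to 0.0043 when a mouse was left out, turning positive without SHMT2 HKO mouse 1. Over all genes, 4663 passed the test, against 2866 with ERCC scaling and 2426 to 5597 when a mouse was left out. Directions turned for genes that had not passed the test, and for Tk1, which had: Ccnd3 was at 0.0098 with DESeq2; without TMM, E2f1, Ccne2 and Pcna were at -0.12, -0.20 and -0.36; with ERCC scaling, E2f1, Ccne2, Pcna and Tk1 were at -0.37, -0.47, -0.66 and -0.20; and Pcna was at -0.016 with upper-quartile normalization. When a mouse was left out, Mcm4 ranged from -0.29 to 0.0802, Ccnd3 ranged from -0.16 to 0.10, Ccne1 ranged from -0.40 to 0.079, Mcm2 ranged from -0.37 to 0.048, Mcm5 ranged from -0.65 to 0.10, Rrm1 ranged from -0.20 to 0.14, Rrm2 ranged from -0.18 to 0.091 and Pcna ranged from -0.11 to 0.19. The cause of these changes was not tested, beyond the common shift of all genes under other scalings. Same-numbered mice did not deviate together from their group means (correlations -0.046, 0.013 and -0.077), so the numbers were not taken as pairs, and with the replicate block 7 calls were lost (Plk1, Cenpe, Cenpf, Nusap1, Mybl2, Cdc6 and Tk1) and 2 gained. Depth limits the genes of few counts, such as Ttk with 1 count in SHMT2 HKO mouse 1.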
